A study of Mus musculus with 9 samples.

Results

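The data described here are the transcripts of 35 enzymes that make, salvage or adjust nucleotides, in CD4+ T cells activated in culture with 0, 5 or 10 μM acacetin, a plant flavone. The enzymes were chosen by name from textbook pathways, with earlier results of these data known. Their counts beside those of all genes are therefore a description. All 35 were found among the 25757 entries of the count matrix and passed the filter on low counts that left 12185 genes. They were divided into 13 enzymes of purine synthesis, 8 of pyrimidine synthesis, 9 of salvage and 5 that act on deoxynucleotides. Naive CD4+ T cells of wild-type (WT) mice, from spleens and lymph nodes of normal animals, were put on plates coated with antibody to CD3 and CD28 at 5 μg/ml, and RNA was taken on day 3. All 3 groups received this activation, the 0 μM group included, and each group has 3 libraries labelled as biological replicates. The study asked how acacetin acts on activated T cells. The origin of the replicates, from 1 animal or several, is not given in what was read, so the p-values measure only the spread between these cultures.

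A T cell that leaves its resting state and divides must copy its genome and make ribosomal RNA, and its need for nucleotides rises. Purines are built on a sugar phosphate, step by step, up to inosine monophosphate, from which separate branches lead to AMP and GMP. Pyrimidines are built as a ring first and joined to the sugar afterwards, by way of an enzyme of the inner mitochondrial membrane that hands its electrons to ubiquinone. Salvage enzymes return free bases and nucleosides to the nucleotide pool. Ribonucleotide reductase turns ribonucleotides into deoxynucleotides, and its small subunit and the cytosolic thymidine kinase are known to be made mainly in S phase. Lymphocytes are known to depend on these routes, and inhibitors of several of these enzymes are used as immunosuppressants.

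The 9 libraries held 19664981 to 24410715 counts each. Levels are given as CPM, counts per 1000000 counts of a library, scaled with edgeR's TMM factors, as mean ± SD over 3 libraries unless each library is listed in the order of its replicate number. All 10 markers of CD4 T cells exceeded 10 CPM at 0 μM, and the CD8 T cell markers summed to 6.45 to 9.13 CPM. 2 libraries stood apart. In 10 μM replicate 1 the listed lung markers summed to 113 CPM against at most 39.2 CPM elsewhere, the blood markers to 23.5 CPM against at most 2.11 CPM and the macrophage and monocyte markers to 14.3 CPM against at most 5.04 CPM. In 5 μM replicate 2 the liver markers summed to 32.8 CPM against at most 2.98 CPM. Counts of called genes without both libraries are given beside the main ones.

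Transcripts of the nucleotide enzymes were mostly lower with acacetin, by small amounts. Together the 35 transcripts summed to 6067 ± 24.2 CPM at 0 μM, 5562 ± 33.1 CPM at 5 μM and 5321 ± 75.7 CPM at 10 μM (SD, n = 3). At 5 μM, 23 of 35 were lower and 4 were higher than at 0 μM at an adjusted p under 0.05 (edgeR's quasi-likelihood test, Benjamini-Hochberg over all 12185 genes), while 16.8% of all genes tested were lower and 16.3% were higher. At 10 μM, 26 were lower and 3 were higher, beside 23.6% and 23.8% of all genes. Among the 8085 genes at or above the level of the lowest of the 35 transcripts, 21.1% were lower and 20.6% higher at 5 μM, and 28.8% and 28.3% at 10 μM. The median log2 fold change of the 35 was -0.12 at 5 μM and -0.21 at 10 μM, against 0.0011 and 0.0013 over all genes. With a change of over 1.5-fold also required, the fold threshold that the study used, 0 of the 35 were called, beside 3.38% of all genes at 5 μM and 7.50% at 10 μM in either direction. Among the 8085 genes at or above the level of the lowest of the 35, only 79 were so called at 5 μM and 275 at 10 μM. At 10 μM the median corresponds to a level that fell by 13.4%. Without 10 μM replicate 1 and 5 μM replicate 2, 21 were lower and 4 higher at 5 μM, and 26 lower and 3 higher at 10 μM. Both comparisons share the 0 μM libraries, so the calls at 5 μM and at 10 μM are not independent of each other. These are bulk libraries, in which fewer cells of a kind and less RNA per cell cannot be told apart.

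**Figure D1:**
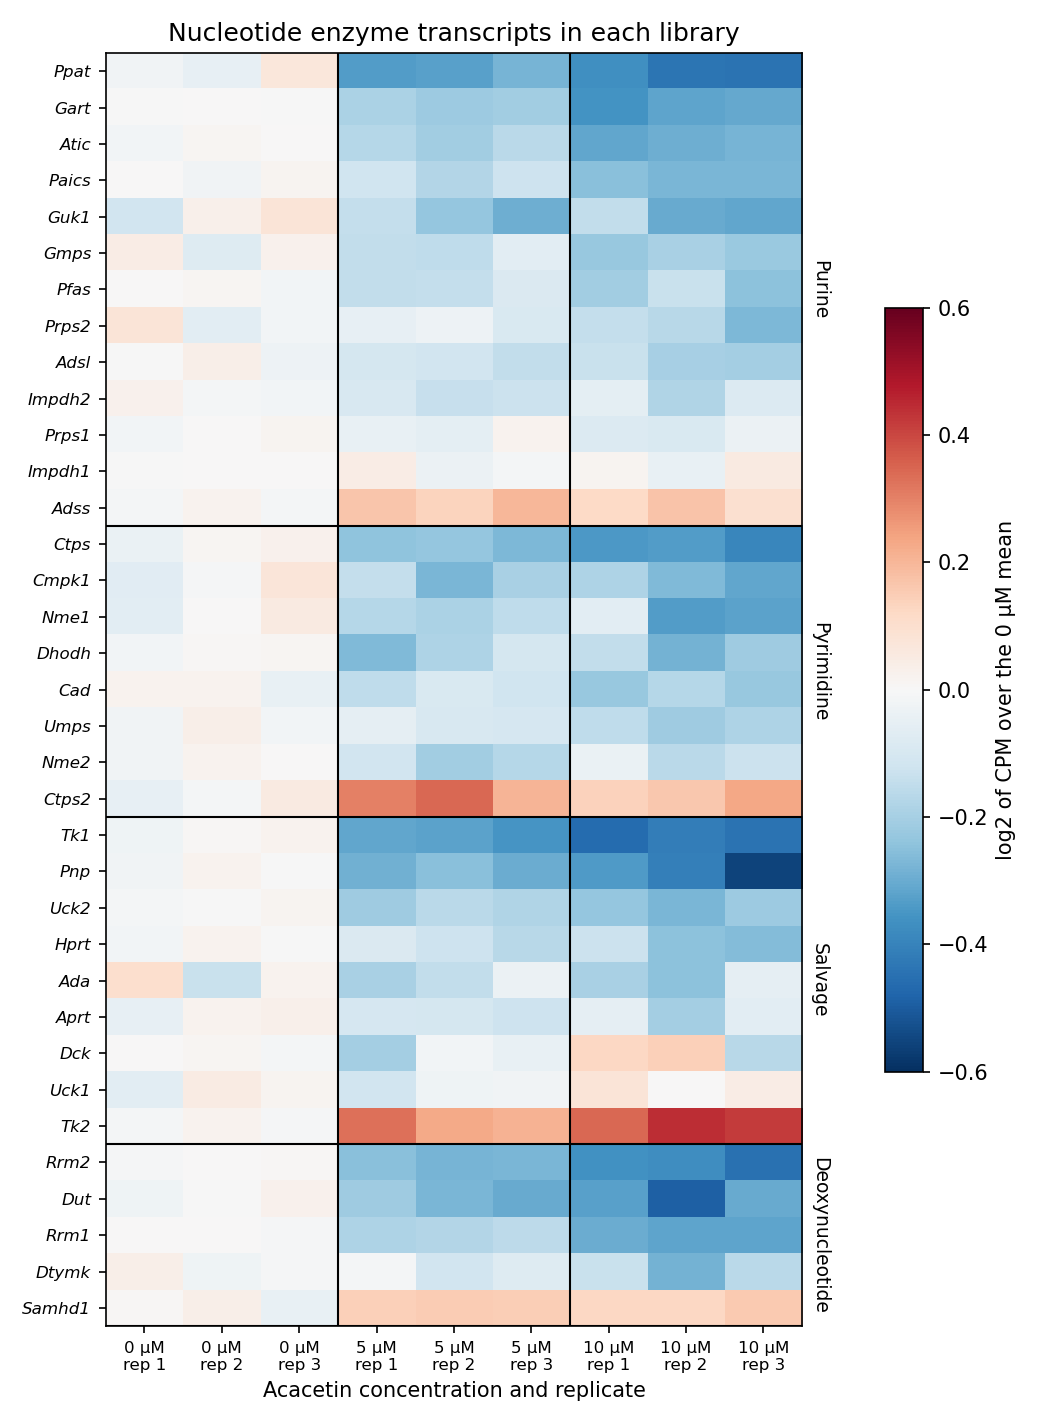
Each row is 1 of the 35 transcripts, grouped by step, and each column 1 of the 9 libraries. Colour gives the log2 of the CPM over the mean at 0 μM, blue below and red above. Blue fills most rows at 5 and 10 μM, and the red rows are Adss, Ctps2, Tk2 and Samhd1.

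Counted as groups that do not overlap, 24 of 35 transcripts lay lower in all 3 libraries at 5 μM than in any at 0 μM and 4 lay higher, beside 23.4% and 23.0% of all genes. At 10 μM the counts were 27 and 4, beside 27.1% and 27.1%. 23 transcripts were lower at both concentrations, Prps2, Umps and Dtymk were lower at 10 μM only, Adss, Tk2 and Samhd1 were higher at both, and Ctps2 was higher at 5 μM only. For Prps1, Impdh1, Uck1, Dck and Ada neither test passed. The mean of 25 transcripts fell from 0 to 5 and again from 5 to 10 μM. Those with the lowest mean at 5 μM were Impdh2, Nme2, Uck1, Dck and Aprt.

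**Figure D2:**
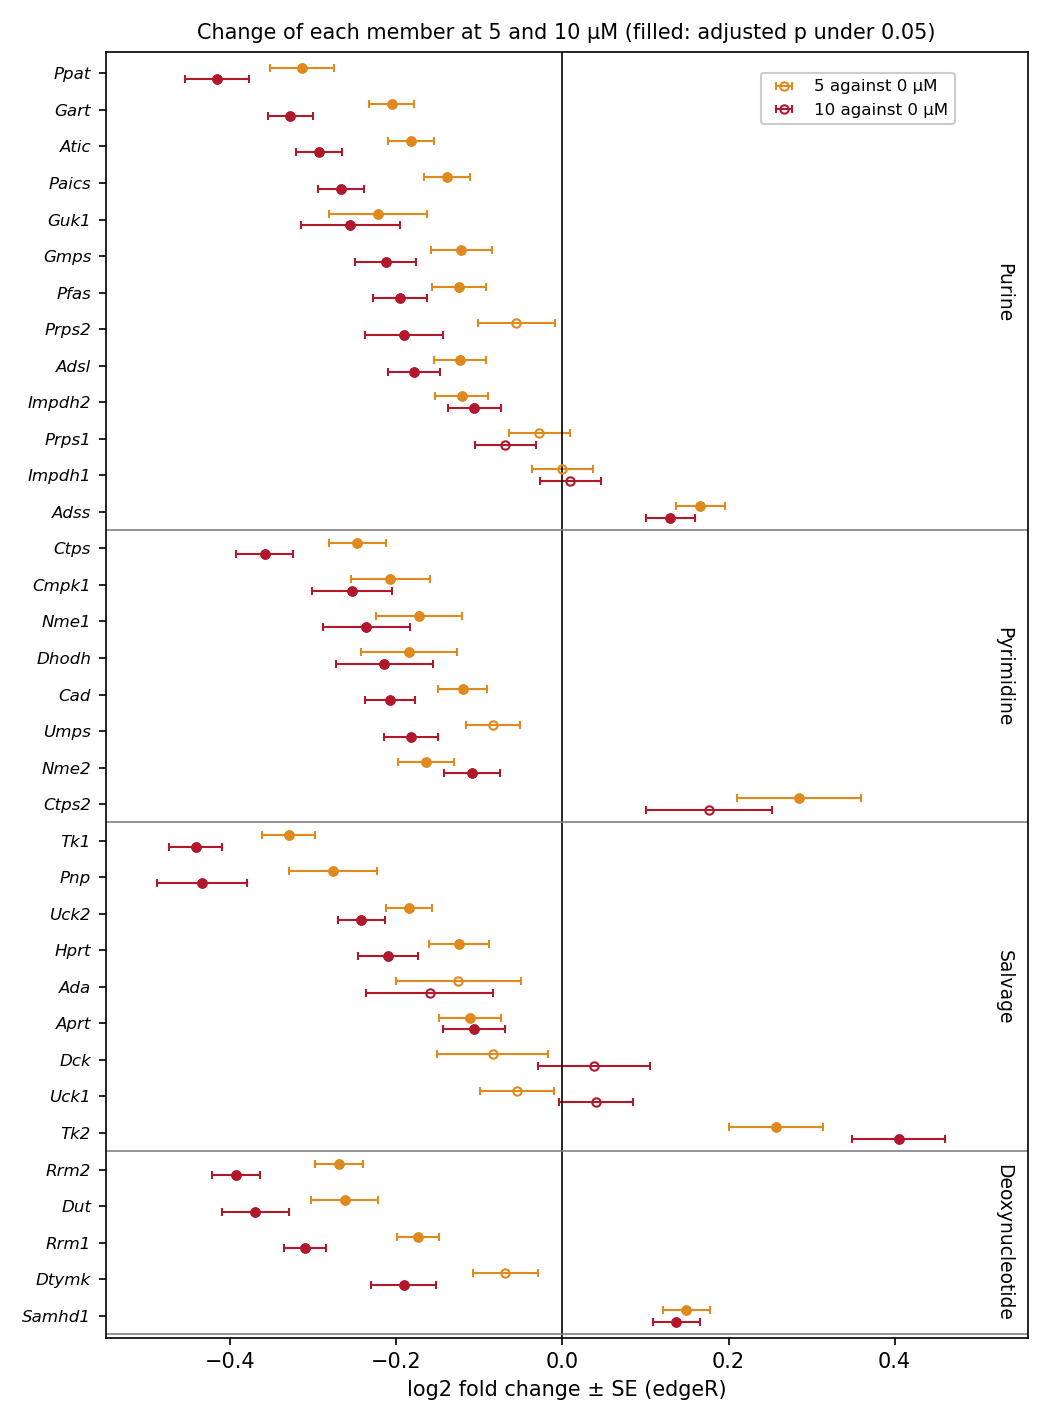
Log2 fold change ± SE from edgeR of each of the 35 transcripts, at 5 μM (orange) and at 10 μM (red) against 0 μM, grouped by step. Filled points have an adjusted p under 0.05. Most points lie left of 0, and the filled points on the right are Adss, Ctps2 (5 μM only), Tk2 and Samhd1.

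In purine synthesis, 9 of 13 transcripts were lower and 1 was higher at 5 μM, and 10 were lower and 1 was higher at 10 μM, with median log2 fold changes of -0.12 and -0.20. The pathway opens with the synthesis of phosphoribosyl pyrophosphate (PRPP) by Prps1 and Prps2. Prps1 stood at 83.7, 84.8 and 85.6 CPM at 0 μM, 82.2, 81.3 and 85.9 CPM at 5 μM and 79.9, 79.6 and 82.7 CPM at 10 μM. Its groups overlapped at 5 μM, and the log2 fold change at 10 μM was -0.069 ± 0.037 (SE, adjusted p = 0.13). Prps1l3, a near copy of Prps1, had means of 30.35, 30.35 and 29.35 CPM at 0, 5 and 10 μM. How reads that fit both were assigned is not stated, which also limits the ratio of Prps2 to Prps1 below. Prps2 stood at 68.2, 61.9 and 63.9 CPM at 0 μM, 62.5, 63.4 and 60.7 CPM at 5 μM and 58.6, 57.7 and 53.7 CPM at 10 μM, with the 10 μM libraries below all others, and fell by 0.19 ± 0.047 on the log2 scale at 10 μM (adjusted p = 0.0025). Ppat, the amidotransferase that commits PRPP to purines, had the largest decrease of the 13 at both concentrations. Its values were 106, 104 and 113 CPM at 0 μM, 85.5, 86.1 and 88.9 CPM at 5 μM and 83.6, 79.6 and 79.4 CPM at 10 μM, and every library with acacetin lay below every library without. The log2 fold change was -0.31 ± 0.038 at 5 μM (adjusted p = 5.1e-06) and -0.42 ± 0.039 at 10 μM (adjusted p = 6.1e-08).

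Gart, which carries out several of the following steps as a single protein, stood at 319, 319 and 318 CPM at 0 μM, 279.6, 274 and 276 CPM at 5 μM and 248, 256 and 258 CPM at 10 μM. The 3 groups did not overlap, and Gart fell by 0.21 ± 0.027 at 5 μM (adjusted p = 1.2e-05) and by 0.33 ± 0.027 at 10 μM (adjusted p = 1.4e-08) on the log2 scale. Pfas, which adds an amide nitrogen from glutamine, had means of 193 ± 1.96, 177 ± 4.04 and 168 ± 6.66 CPM at 0, 5 and 10 μM and fell by 0.20 on the log2 scale at 10 μM (adjusted p = 7.0e-05). Paics, a bifunctional enzyme that adds carbon dioxide and then aspartate to the intermediate, stood at 288, 282 and 290.5 CPM at 0 μM, 264, 254 and 263 CPM at 5 μM and 241, 237 and 237 CPM at 10 μM. Here too the 3 groups did not overlap, with log2 fold changes of -0.14 ± 0.028 at 5 μM (adjusted p = 8.1e-04) and -0.27 ± 0.028 at 10 μM (adjusted p = 3.0e-07). Adsl, a lyase that works both before inosine monophosphate and on the AMP branch, had means of 169.5 ± 4.003, 156 ± 2.43 and 149.7 ± 4.05 CPM at 0, 5 and 10 μM (adjusted p = 1.3e-04 at 10 μM). Atic, which completes inosine monophosphate, stood at 247, 252 and 250.5 CPM at 0 μM, 222, 216 and 223 CPM at 5 μM and 202, 204 and 206 CPM at 10 μM. It was the last of the steps shared by AMP and GMP, and its groups were again separate, with decreases of 0.18 ± 0.028 at 5 μM (adjusted p = 5.6e-05) and 0.29 ± 0.028 at 10 μM (adjusted p = 7.8e-08) on the log2 scale. Thus the 6 enzymes from Ppat to Atic were all lower at both concentrations. Ppat and Paics lie head to head and overlap by 277 bases at their 5′ ends in the RefSeq annotation of GRCm38.p6, and the strand setting of the counts is not given in the sources used here, so reads from that stretch cannot be assigned to either with certainty.

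After inosine monophosphate the enzymes of a branch did not all move together. On the AMP branch Adss rose, while Adsl had log2 fold changes of -0.12 at 5 μM and -0.18 at 10 μM. On the GMP branch Impdh1 was not called, while Impdh2, Gmps and Guk1 fell. Adss, the synthase at the start of the AMP branch, was the one purine enzyme that rose. Its values were 259, 265 and 259 CPM at 0 μM, 293, 287 and 299.5 CPM at 5 μM and 284, 294 and 279 CPM at 10 μM, so all 6 libraries with acacetin lay above all 3 without. The log2 fold change was 0.17 ± 0.03 at 5 μM (adjusted p = 2.7e-04) and 0.13 ± 0.03 at 10 μM (adjusted p = 0.0014). On the GMP branch, Impdh1 and Impdh2 oxidize inosine monophosphate and are the target of mycophenolate. Impdh1 stood at 89.6, 90.0 and 90.0 CPM at 0 μM, 92.8, 87.7 and 89.2 CPM at 5 μM and 91.0, 87.2 and 93.2 CPM at 10 μM, with overlapping groups and log2 fold changes of -0.00025 and 0.0094. Impdh2 stood at 376, 366 and 365 CPM at 0 μM, 345, 336 and 337 CPM at 5 μM and 355, 326 and 348 CPM at 10 μM and fell by 0.12 ± 0.032 at 5 μM (adjusted p = 0.0063) and by 0.11 ± 0.032 at 10 μM (adjusted p = 0.01). Gmps, which makes GMP, had means of 133 ± 6.05, 123 ± 4.16 and 115 ± 1.31 CPM at 0, 5 and 10 μM and fell by 0.21 ± 0.037 on the log2 scale at 10 μM (adjusted p = 1.0e-04). Guk1, the kinase that takes GMP to GDP, had means of 49.2 ± 3.35, 42.2 ± 2.25 and 41.3 ± 2.67 CPM at 0, 5 and 10 μM and fell by 0.26 ± 0.059 at 10 μM (adjusted p = 0.0016). The ratio of Adss to Adsl, which act in sequence on the AMP branch, averaged 1.54 ± 0.0198 at 0 μM, 1.89 ± 0.0667 at 5 μM and 1.91 ± 0.0771 at 10 μM, a description of a pair picked after its values were seen. Calls in this branch that rest on a library were those of Gmps at 5 μM (adjusted p = 0.085, 0.071, 0.066 and 0.083 without 0 μM replicate 1, 0 μM replicate 3, 5 μM replicate 1 and 5 μM replicate 2), Guk1 at 5 μM (0.052 without 0 μM replicate 3) and Impdh2 at 10 μM (0.0503 without 0 μM replicate 1).

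In pyrimidine synthesis, 6 of 8 transcripts were lower and 1 was higher at 5 μM, and 7 were lower and 0 higher at 10 μM (0 with DESeq2, and 1 at an unadjusted p under 0.05), with median log2 fold changes of -0.17 and -0.21. Cad, the large protein that holds the opening activities of the pathway, stood at 331, 332 and 317 CPM at 0 μM, 294, 306 and 300.2 CPM at 5 μM and 279, 289.7 and 279 CPM at 10 μM. Its libraries with acacetin all lay below those without, and it fell by 0.12 ± 0.03 at 5 μM (adjusted p = 0.0044) and by 0.21 ± 0.03 at 10 μM (adjusted p = 1.4e-05) on the log2 scale. Dhodh, the mitochondrial dehydrogenase that feeds electrons to ubiquinone and is the target of leflunomide, had means of 30.1 ± 0.297, 26.5 ± 1.496 and 25.9 ± 1.21 CPM at 0, 5 and 10 μM. Both groups with acacetin lay below the 0 μM group and overlapped with each other, and the log2 fold change was -0.18 ± 0.058 at 5 μM (adjusted p = 0.019) and -0.21 ± 0.058 at 10 μM (adjusted p = 0.0051). The call at 5 μM was lost without 0 μM replicate 3, 5 μM replicate 1 or 5 μM replicate 2 (adjusted p = 0.059, 0.105 and 0.058) and with DESeq2 on all libraries (0.071). Umps, which finishes UMP, stood at 123, 128 and 123 CPM at 0 μM, 120.2, 117 and 116 CPM at 5 μM and 112, 108 and 109.9 CPM at 10 μM. The 3 groups were separate but the change at 5 μM, -0.084 ± 0.032, missed the threshold (adjusted p = 0.053), whereas the decrease of 0.18 ± 0.033 at 10 μM passed it (adjusted p = 1.4e-04). Without 10 μM replicate 1 or replicate 2 in the shared fit, Umps was also called at 5 μM (adjusted p = 0.048 and 0.040).

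Cmpk1, the kinase that takes UMP and CMP to their diphosphates, stood at 71.7, 74.7 and 79.0 CPM at 0 μM, 68.0, 62.0 and 65.5 CPM at 5 μM and 66.1, 62.6 and 60.6 CPM at 10 μM. All libraries with acacetin lay below those without, with decreases of 0.21 ± 0.048 at 5 μM (adjusted p = 0.0025) and 0.25 ± 0.048 at 10 μM (adjusted p = 2.5e-04) on the log2 scale. Nme1 and Nme2 are diphosphate kinases that also serve purines. Nme1 stood at 146, 153 and 158 CPM at 0 μM, 135, 133 and 137 CPM at 5 μM and 146, 121 and 122 CPM at 10 μM, where 10 μM replicate 1 was only just below the lowest library at 0 μM. It fell by 0.17 ± 0.052 at 5 μM (adjusted p = 0.016) and 0.24 ± 0.052 at 10 μM (adjusted p = 0.0011), and the call at 5 μM was lost without 0 μM replicate 3 or 5 μM replicate 2 (0.087 and 0.061). Nme2 stood at 325, 335 and 332 CPM at 0 μM, 306, 286 and 294 CPM at 5 μM and 322, 296 and 302 CPM at 10 μM, lowest at 5 μM, with log2 fold changes of -0.16 ± 0.034 at 5 μM (adjusted p = 9.4e-04) and -0.11 ± 0.034 at 10 μM (adjusted p = 0.012, and 0.054 without 0 μM replicate 2).

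CTP is made from UTP by a pair of synthases, and these moved apart. Ctps, known in human lymphocytes as the form that rises on activation, stood at 106, 109.5 and 110.5 CPM at 0 μM, 91.8, 92.4 and 90.2 CPM at 5 μM and 85.3, 86.1 and 82.6 CPM at 10 μM. The 3 groups did not overlap, and Ctps fell by 0.25 ± 0.034 at 5 μM (adjusted p = 2.0e-05) and 0.36 ± 0.034 at 10 μM (adjusted p = 9.1e-08) on the log2 scale. Ctps2, much less abundant, stood at 11.7, 12.0 and 12.6 CPM at 0 μM, 14.9, 15.4 and 14.0 CPM at 5 μM and 13.3, 13.6 and 14.2 CPM at 10 μM. All of its libraries with acacetin lay above those without, the change at 5 μM was 0.28 ± 0.075 (adjusted p = 0.0064, and 0.051 with DESeq2 on both groups alone), and the change at 10 μM, 0.18 ± 0.076, did not pass (adjusted p = 0.064).

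Among the 9 salvage enzymes 5 were lower and 1 was higher at both concentrations, with median log2 fold changes of -0.12 and -0.16, and the extremes of all 35 transcripts at 10 μM were found here. Tk1, the cytosolic thymidine kinase, had the largest decrease of the 35. Its values were 129, 132 and 133 CPM at 0 μM, 106, 105 and 103 CPM at 5 μM and 95.2, 98.4 and 96.4 CPM at 10 μM, and the 3 groups did not overlap. The log2 fold change was -0.33 ± 0.032 at 5 μM (adjusted p = 2.6e-07) and -0.44 ± 0.032 at 10 μM (adjusted p = 2.2e-09), a loss of 26.4%. Tk2, the mitochondrial thymidine kinase, had the largest increase at 10 μM. It stood at 23.5, 24.04 and 23.5 CPM at 0 μM, 29.8, 27.7 and 27.4 CPM at 5 μM and 30.1, 32.2 and 31.7 CPM at 10 μM, so that every library with acacetin was above every library without. The log2 fold change was 0.26 ± 0.057 at 5 μM (adjusted p = 0.0017) and 0.40 ± 0.056 at 10 μM (adjusted p = 9.1e-06), a gain of 32.4%.

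Uridine and cytidine are phosphorylated by Uck1 and Uck2. Uck2 stood at 308, 309.9 and 314 CPM at 0 μM, 268, 278 and 274 CPM at 5 μM and 264, 257 and 267 CPM at 10 μM, with separate groups, and fell by 0.18 ± 0.028 at 5 μM (adjusted p = 5.5e-05) and 0.24 ± 0.028 at 10 μM (adjusted p = 1.0e-06) on the log2 scale. Uck1 stood at 59.6, 64.5 and 63.0 CPM at 0 μM, 57.6, 61.2 and 61.4 CPM at 5 μM and 65.8, 62.4 and 64.4 CPM at 10 μM, and neither change, -0.055 ± 0.044 or 0.041 ± 0.044, passed the test. Dck, which phosphorylates deoxycytidine and purine deoxynucleosides, had values of 52.6, 53.0 and 52.1 CPM at 0 μM, 45.6, 52.1 and 51.0 CPM at 5 μM and 57.4, 58.1 and 46.9 CPM at 10 μM. Its 10 μM libraries were scattered around the 0 μM level, with a log2 fold change of 0.038 ± 0.067 (adjusted p = 0.67), and did not pass the test at either concentration. Of the purine salvage enzymes, Pnp, the phosphorylase that splits inosine and guanosine, fell most. Pnp stood at 44.0, 45.4 and 44.6 CPM at 0 μM, 36.6, 37.6 and 36.4 CPM at 5 μM and 35.3, 33.6 and 30.4 CPM at 10 μM, all lower with acacetin, with decreases of 0.28 ± 0.053 at 5 μM (adjusted p = 5.1e-04) and 0.43 ± 0.054 at 10 μM (adjusted p = 2.4e-06). Its close copy Pnp2 had at most 0.496 CPM in every library, but how reads that fit both were assigned is not stated.

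Hprt and Aprt return purine bases to nucleotides. Hprt had means of 162 ± 2.35, 148 ± 4.10 and 140.0 ± 7.15 CPM at 0, 5 and 10 μM and fell by 0.12 ± 0.036 at 5 μM (adjusted p = 0.012) and 0.21 ± 0.036 at 10 μM (adjusted p = 9.4e-05), the former lost without 0 μM replicate 2 or 5 μM replicate 3 (0.055 and 0.071). Aprt had means of 182 ± 5.44, 168 ± 1.59 and 169 ± 9.60 CPM at 0, 5 and 10 μM, and its decreases of 0.11 and 0.11 (adjusted p = 0.027 and 0.025) depended on single libraries. They were lost without 0 μM replicate 2 or 0 μM replicate 3, with adjusted p of 0.096 and 0.113 at 5 μM and of 0.087 and 0.102 at 10 μM, without any of the 5 μM libraries at 5 μM (0.062 to 0.097) and without 10 μM replicate 2 at 10 μM (0.137). Ada, the deaminase whose loss causes an immunodeficiency in humans, had means of 20.1 ± 1.65, 18.5 ± 1.06 and 18 ± 1.26 CPM at 0, 5 and 10 μM. Its change of -0.16 ± 0.076 at 10 μM did not pass (adjusted p = 0.092), although it did without 0 μM replicate 2 or 10 μM replicate 3 (0.034 and 0.042).

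The 5 deoxynucleotide enzymes had the most negative median of the 4 steps at 10 μM, -0.31. At 5 μM their median of -0.174 was close to the -0.169 of pyrimidine synthesis. With 5 enzymes, both medians are the value of a single one, Rrm1. At 5 μM 3 were lower and 1 higher, and at 10 μM 4 were lower and 1 higher. Without 10 μM replicate 1 and 5 μM replicate 2, the counts of every step at 10 μM were those given, and at 5 μM 8 were lower in purine and 5 in pyrimidine synthesis, with the other counts as given. The steps were not tested against each other. Rrm1, the large subunit of ribonucleotide reductase, stood at 507, 507 and 503 CPM at 0 μM, 444, 447 and 453 CPM at 5 μM and 411, 407 and 406 CPM at 10 μM. The 3 groups lay apart, and Rrm1 fell by 0.17 ± 0.025 at 5 μM (adjusted p = 3.4e-05) and 0.31 ± 0.025 at 10 μM (adjusted p = 1.1e-08) on the log2 scale. Rrm2, the small subunit, stood at 326, 328 and 328 CPM at 0 μM, 275, 269.5 and 271 CPM at 5 μM and 254, 253 and 240.2 CPM at 10 μM. Again no groups overlapped, and the decreases were 0.27 ± 0.029 at 5 μM (adjusted p = 9.7e-07) and 0.39 ± 0.029 at 10 μM (adjusted p = 2.6e-09). Dut, which clears dUTP and supplies dUMP for thymidylate, stood at 224, 227 and 231 CPM at 0 μM, 196, 188 and 184 CPM at 5 μM and 181, 162 and 185 CPM at 10 μM. Libraries with acacetin all lay below those without, with decreases of 0.26 ± 0.04 at 5 μM (adjusted p = 6.3e-05) and 0.37 ± 0.041 at 10 μM (adjusted p = 5.2e-07). Dtymk, the kinase for thymidylate, stood at 149, 143 and 145 CPM at 0 μM, 144, 134 and 138 CPM at 5 μM and 133, 119.6 and 130.2 CPM at 10 μM. Its 5 μM group overlapped with the 0 μM group, and only the decrease at 10 μM, 0.19 ± 0.039, passed (adjusted p = 5.3e-04).

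Samhd1 works against ribonucleotide reductase, since it breaks deoxynucleoside triphosphates down, and it was the one of the 5 that rose. It stood at 336, 344 and 324 CPM at 0 μM, 369.9, 372 and 370.5 CPM at 5 μM and 365, 365 and 374 CPM at 10 μM. All 6 libraries with acacetin exceeded the 3 without, by 0.15 ± 0.028 at 5 μM (adjusted p = 4.9e-04) and 0.14 ± 0.028 at 10 μM (adjusted p = 5.8e-04) on the log2 scale. The ratio of Rrm2 to Samhd1 counts, picked after its values were seen and given with no test, went from 0.978 ± 0.0315 at 0 μM to 0.732 ± 0.00959 at 5 μM and 0.678 ± 0.0304 at 10 μM.

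**Figure D3:**
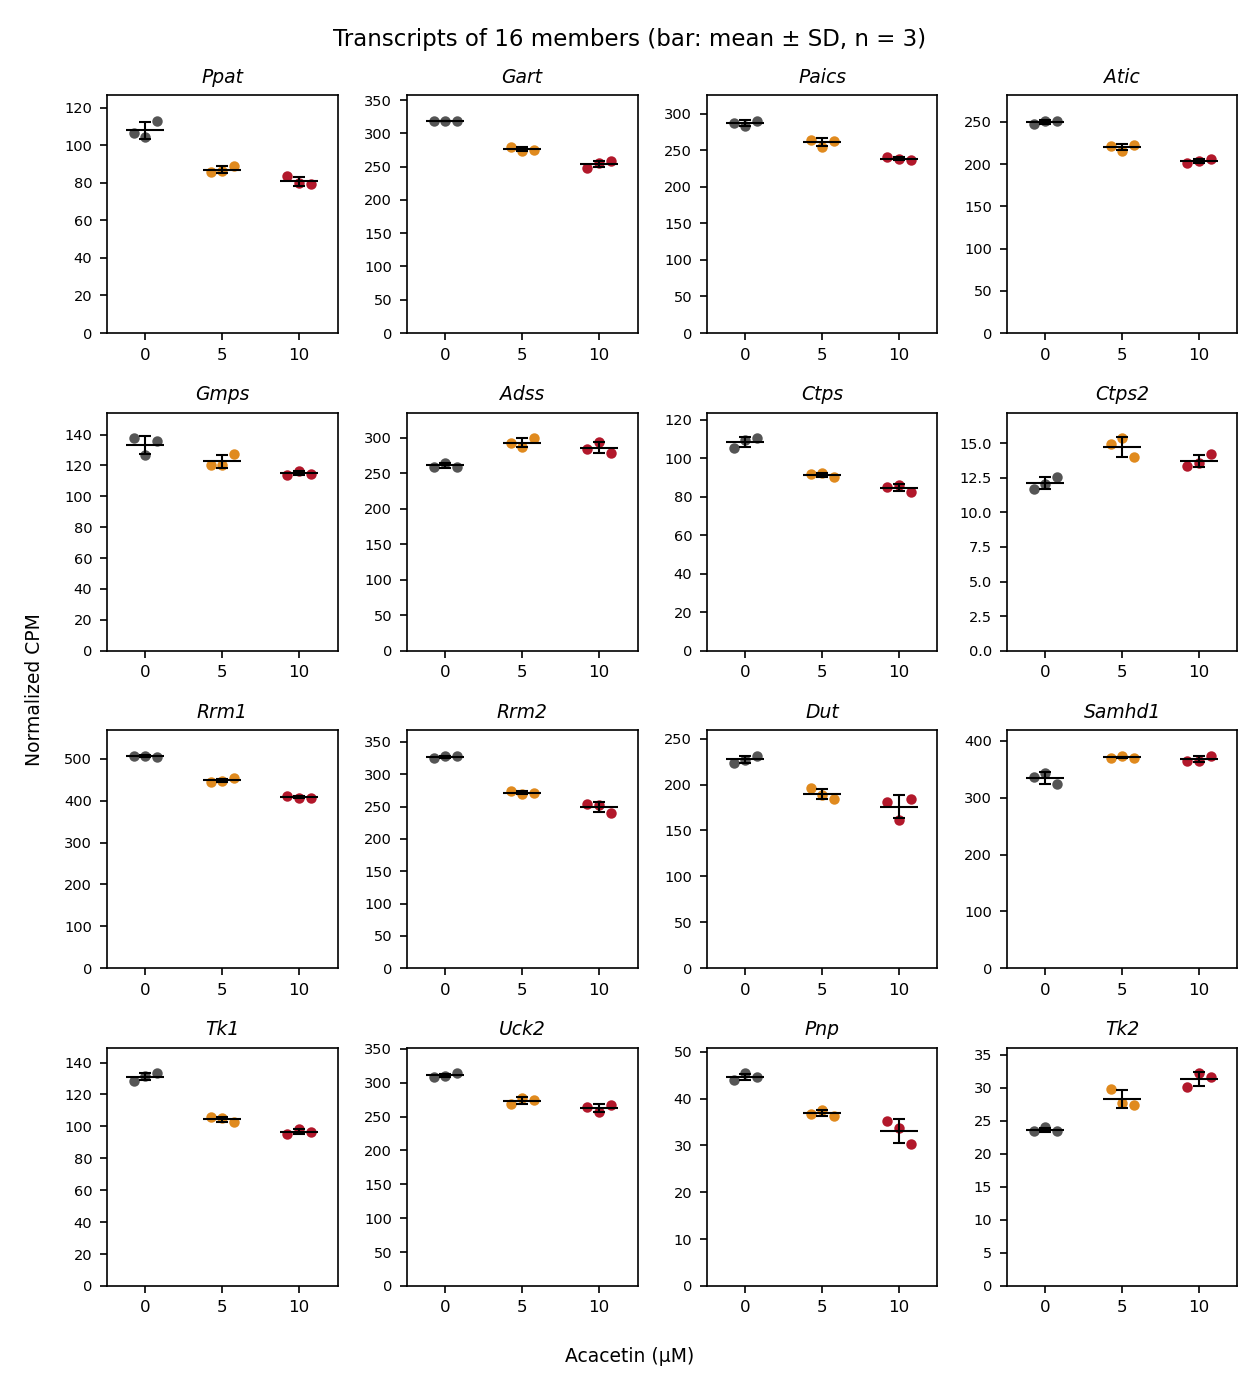
Normalized CPM of 16 of the transcripts in each library at 0, 5 and 10 μM, with a bar at the mean ± SD (n = 3) and all axes from 0. The decreases are small against the level, as for Rrm1 from 506 to 408 CPM, and Adss, Ctps2, Samhd1 and Tk2 lie higher with acacetin.

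Transcripts of the dividing state moved in the same libraries. Of 32 genes of the DNA replication fork, 17 were lower and 0 higher at 5 μM and 25 were lower and 0 higher at 10 μM, with median log2 fold changes of -0.091 and -0.15. Of 20 genes of mitosis, 15 and 18 were lower and 0 higher, with medians of -0.23 and -0.35. The numbers lower without 10 μM replicate 1 and 5 μM replicate 2 were 15 and 24 for the replication fork and 15 and 18 for mitosis. Among both lists, 0 genes were higher at an unadjusted p under 0.05 and 0 with DESeq2. The 10 CD4 T cell markers summed to 4140.0 ± 10.2, 4123 ± 23.2 and 4156 ± 60.0 CPM at 0, 5 and 10 μM. Single markers moved in both directions at 10 μM. Cd2 rose by 0.42 (adjusted p = 1.1e-08) and Zap70 by 0.25 (adjusted p = 3.6e-07) on the log2 scale, whereas Cd3g fell by 0.18 (adjusted p = 3.2e-04) and Cd4 by 0.12 (adjusted p = 0.0012). Replication fork transcripts summed to 6076 ± 2.94 CPM at 0 μM and 5445 ± 13.8 CPM at 10 μM, and mitosis transcripts to 3878 ± 20.3 and 3133 ± 62.9 CPM. The part of the share of dividing cells in the lower nucleotide enzymes was not tested.

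Pairs of enzymes that catalyse the same reaction were compared as ratios of counts within each library, which do not depend on the scaling between libraries. For 6 pairs, an exact permutation test over the 280 ways to divide 9 libraries into 3 groups of 3 was used, with 0.0036 as the smallest p it allows, and p adjusted over the 6 pairs. The test compared the spread of log2 ratios within groups. Its p refers to any difference among the 3 concentrations, not to 0 against 10 μM. Where the 5 and 10 μM groups overlap, exchanging their libraries can give as good a division, which raises the p. The ratio of Tk1 to Tk2 was 5.48, 5.48 and 5.66 at 0 μM, 3.54, 3.79 and 3.75 at 5 μM and 3.16, 3.05 and 3.04 at 10 μM. The groups did not overlap (adjusted exact p = 0.011 over the 3 groups), and the mean fell by 44.3% from 0 to 10 μM. Uck2 against Uck1 was 5.17, 4.81 and 4.98 at 0 μM, 4.66, 4.54 and 4.46 at 5 μM and 4.02, 4.11 and 4.15 at 10 μM, also with 3 separate groups (adjusted exact p = 0.011). Ctps against Ctps2 was 9.0, 9.10 and 8.78 at 0 μM, 6.15, 6.01 and 6.46 at 5 μM and 6.39, 6.36 and 5.81 at 10 μM, with all libraries with acacetin below those without and overlap between 5 and 10 μM (adjusted exact p = 0.048). Impdh2 against Impdh1 changed least of these 4, from 4.11 ± 0.0727 at 0 μM to 3.78 ± 0.0563 at 5 μM and 3.79 ± 0.0928 at 10 μM (adjusted exact p = 0.048). The last 2 pairs missed the threshold without 0 μM replicate 1 (0.064 for Ctps and 0.075 for Impdh2) or without 5 μM replicate 1 (0.054 for both). The ratio of Nme2 to Nme1 was 2.17 ± 0.0702, 2.18 ± 0.0689 and 2.38 ± 0.148 at 0, 5 and 10 μM and that of Prps2 to Prps1 was 0.764 ± 0.0450, 0.749 ± 0.0374 and 0.703 ± 0.0465, and neither passed (adjusted exact p = 0.14 and 0.29). Without 10 μM replicate 1, the library with lung and blood transcripts, the Nme pair passed (0.043). In the 4 pairs that passed, the more abundant form fell against the less abundant one. The Nme and Prps pairs moved the other way. From 0 to 10 μM the mean ratio of Nme2 to Nme1 rose by 9.6%, and that of Prps2 to Prps1 fell by 8.0%.

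**Figure D4:**
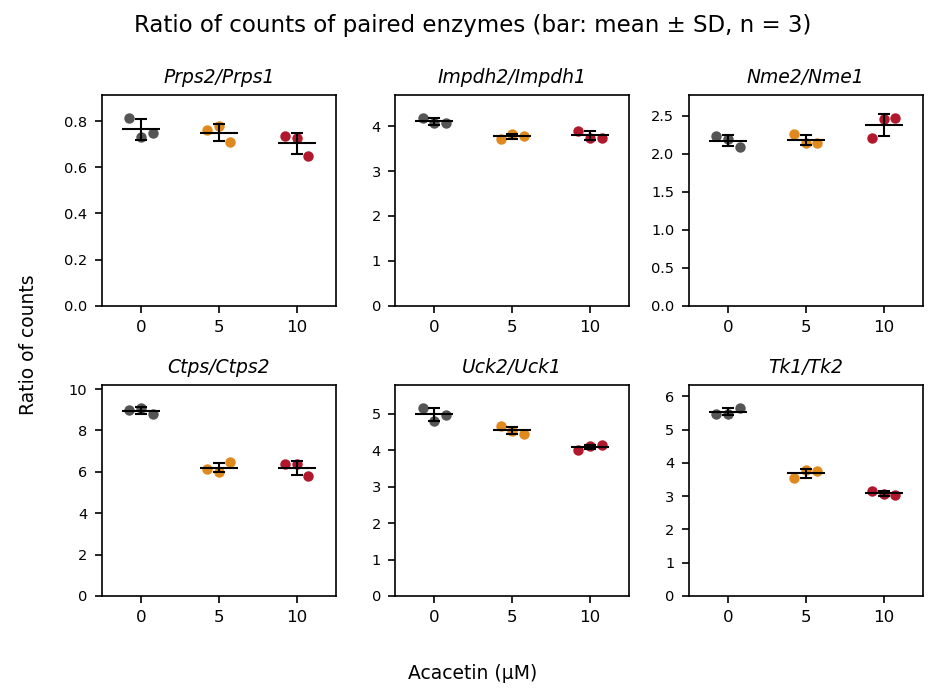
Ratio of counts of 6 pairs of enzymes in each library at 0, 5 and 10 μM, with a bar at the mean ± SD (n = 3) and axes from 0. The ratios of Tk1 to Tk2 and of Uck2 to Uck1 step down with each concentration, and that of Ctps to Ctps2 drops between 0 and 5 μM and stays near 6.2.

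A direct comparison of 10 with 5 μM found 6 of 35 transcripts lower and 0 higher, beside 4.09% lower and 4.92% higher among all genes, and 0 of the 35 over 1.5-fold, beside 0.345%. The median log2 fold change was -0.071 against -5.8e-05 for all genes. Among the 8085 genes at or above the level of the lowest of the 35, 5.64% were lower and 6.64% higher, and 6 genes were called over 1.5-fold. DESeq2 on all libraries called 5 lower and 0 higher. At an unadjusted p under 0.05, 17 were lower and 2 higher. The 6 were Gart (-0.12 ± 0.027, adjusted p = 0.0079), Paics (-0.13 ± 0.028, 0.0071) and Atic (-0.11 ± 0.028, 0.016) of purine synthesis, Tk1 (-0.11 ± 0.032, 0.037), and Rrm1 (-0.14 ± 0.025, 0.0021) and Rrm2 (-0.12 ± 0.029, 0.01), each as log2 fold change ± SE. No pyrimidine enzyme passed in this comparison with edgeR or DESeq2 (3 at an unadjusted p under 0.05), the nearest being Ctps at -0.11 ± 0.035 (adjusted p = 0.052). Non-overlapping groups were found for 15 transcripts lower and 2 higher at 10 than at 5 μM, beside 12.6% and 13.3% of all genes. Only Paics and Rrm1 kept their call under all of the 20 alternatives that keep the threshold on adjusted p alone. Tk1 lost it in 14 of them, among them DESeq2 on all libraries (adjusted p = 0.081) and removal of 5 μM replicate 2 (0.112). Atic lost it without 5 μM replicate 1 or 5 μM replicate 3 (0.065 and 0.080), Rrm2 without 10 μM replicate 3 (0.062), and Gart and Atic without both libraries with lung or liver transcripts (0.0501 and 0.051). In that last setting 5 were lower, namely Paics, Rrm1, Rrm2, Dtymk and, of pyrimidine synthesis, Nme1 (adjusted p = 0.031). Nme1 gained a call without 10 μM replicate 1 (0.014), as did Hprt (0.026), Pnp (0.033) and Dtymk (0.029), and Dck was called higher without 10 μM replicate 3 (0.027). Pfas, Cad and Ctps were called lower without 10 μM replicate 2 (0.032, 0.022 and 0.037). Leaving out 1 library at a time, 4 to 9 transcripts were called lower.

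Levels between genes can be compared per length only. With the longest principal transcript of each gene in GENCODE M21 as the length, the highest levels at 0 μM were those of Nme2 at 327 ± 4.89, Aprt at 214 ± 6.36 and Impdh2 at 199 ± 3.06 CPM per kilobase. Rrm2 followed at 149 ± 0.716, with a range that overlapped that of Dtymk at 145 ± 3.07. Then came Rrm1 at 126 ± 0.545, with a range that overlapped that of Hprt at 126 ± 1.82. Among the enzymes of the path to inosine monophosphate, Paics stood at 116 ± 1.64, Gart at 90.6 ± 0.158 and Atic at 87.8 ± 0.844, while Ppat, which opens it, stood at 27.1 ± 1.17 CPM per kilobase. The lowest were Ctps2 at 3.61 ± 0.131, Tk2 at 9.85 ± 0.128 and Ada at 11.9 ± 0.976 CPM per kilobase. Of the 34 pairs of neighbours in this order, 12 had overlapping ranges. The transcript that these cells use may differ in length from the annotated one, so the order is approximate.

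Since many of these transcripts fell together, their promoters were looked at for short motifs, in windows from 250 bases before to 50 after the start from RefSeq (GRCm38.p6), which 33 of the 35 genes have; Pfas and Dhodh were not matched. The E-box CACGTG, a palindrome to which MYC and related proteins bind, was found in the windows of 5 of 33, Atic, Dtymk, Impdh2, Nme1 and Paics (15.2%), against 8.09% of 27025 genes. E2F sites, searched on both strands as TTTCCCGC, TTTGGCGC, TTTCGCGC and TTTGCCGC, were found in 2 of 33, Ppat and Prps2 (6.06% against 2.60%). The CCAAT box, searched on both strands, was found in 13 of 33 (39.4% against 41.1%). The 27025 genes were not limited to the 12185 tested in these cells, so these shares are not matched for expression. A match is a string of letters and does not show binding. The 250 bases before the start are printed for Atic and Dtymk, which hold both an E-box and a CCAAT box, and for both subunits of ribonucleotide reductase, which hold CCAAT boxes and no E-box. Capitals mark the motifs, ATTGG being CCAAT on the other strand, and bases run from 5′ to 3′ on the strand of the gene.
Atic, chr1:71556906-71557155, plus strand: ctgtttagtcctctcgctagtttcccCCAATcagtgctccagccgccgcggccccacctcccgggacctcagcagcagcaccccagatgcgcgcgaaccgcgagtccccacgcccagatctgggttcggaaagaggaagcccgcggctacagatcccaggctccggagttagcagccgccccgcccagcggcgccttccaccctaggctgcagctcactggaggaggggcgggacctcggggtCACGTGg
Dtymk, chr1:93801935-93802184, minus strand: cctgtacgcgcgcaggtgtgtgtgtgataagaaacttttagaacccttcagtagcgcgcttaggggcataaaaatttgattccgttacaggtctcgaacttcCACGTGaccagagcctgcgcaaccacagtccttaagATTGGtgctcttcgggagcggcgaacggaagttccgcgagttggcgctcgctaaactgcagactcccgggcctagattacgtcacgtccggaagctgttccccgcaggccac
Rrm1, chr7:102441445-102441694, plus strand: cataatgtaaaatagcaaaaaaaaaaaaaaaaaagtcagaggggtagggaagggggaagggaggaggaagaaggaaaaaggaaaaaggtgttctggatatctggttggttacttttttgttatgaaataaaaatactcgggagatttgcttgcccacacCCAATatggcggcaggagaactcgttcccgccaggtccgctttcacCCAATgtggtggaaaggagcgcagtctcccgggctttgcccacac
Rrm2, chr12:24708004-24708253, plus strand: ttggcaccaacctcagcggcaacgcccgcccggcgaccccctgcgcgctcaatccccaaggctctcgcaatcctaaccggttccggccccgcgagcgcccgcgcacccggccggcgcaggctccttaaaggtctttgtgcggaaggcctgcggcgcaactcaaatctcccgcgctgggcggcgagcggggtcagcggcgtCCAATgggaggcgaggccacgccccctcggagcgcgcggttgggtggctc
In Atic the E-box lies directly before the start, whereas in Dtymk it begins 148 bases before it and the CCAAT box 112. Rrm1 has CCAAT boxes that begin 91 and 45 bases before its start and Rrm2 one at 50.

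Of 54 other genes of nucleotide metabolism listed beside the 35, 43 were tested. At 5 μM 17 were lower and 3 higher, and at 10 μM 21 were lower and 2 higher, with medians of -0.12 and -0.13. Without 10 μM replicate 1 and 5 μM replicate 2 11 were lower at 5 μM and 17 at 10 μM. The count higher at 10 μM was 4 without 10 μM replicate 2. Of 7 tested pyrimidine kinases and phosphorylases, 1 was lower at 5 μM and 2 at 10 μM, close to the shares of all genes. Their medians were -0.066 and -0.020. Nme3 lost its call at 5 μM in 16 of 20 alternatives, and Nme6 its call at 10 μM in 11 of 20. Among 8 further enzymes of deoxynucleotides, 5 were lower and 1 higher at each concentration (4 and 1 without 10 μM replicate 1 and 5 μM replicate 2). Dnph1, a hydrolase of deoxynucleoside monophosphates, stood at 22.1, 21.3 and 22.6 CPM at 0 μM, 16.1, 17.9 and 17.0 CPM at 5 μM and 13.7, 14.0 and 12.9 CPM at 10 μM. Its groups were separate at each step, with log2 fold changes of -0.37 ± 0.066 at 5 μM (adjusted p = 2.5e-04) and -0.70 ± 0.069 at 10 μM (adjusted p = 1.1e-07). Dctpp1 fell by 0.31 on the log2 scale at 10 μM (adjusted p = 1.4e-04) and Nudt1 by 0.37 (adjusted p = 0.0015), pyrophosphatases that clear unwanted deoxynucleotides. Against them, Dguok, the mitochondrial deoxyguanosine kinase, rose by 0.26 ± 0.072 at 5 μM (adjusted p = 0.0088) and 0.26 ± 0.073 at 10 μM (adjusted p = 0.0069). The call of Dguok at 5 μM was lost without 0 μM replicate 2 (adjusted p = 0.059). Dguok and Tyms were named after their values were seen. Tyms, thymidylate synthase, stood at 149 ± 2.36, 152 ± 5.09 and 145 ± 4.43 CPM at 0, 5 and 10 μM, with changes of 0.031 ± 0.034 and -0.033 ± 0.034 that did not pass (adjusted p = 0.52 and 0.45). Among 15 tested genes of adenylate and guanylate interconversion, 6 were lower and 2 higher at 5 μM. At 10 μM 7 were lower and 1 higher. Without 10 μM replicate 1 and 5 μM replicate 2 the counts were 3 and 1 at 5 μM and 6 and 1 at 10 μM. The lower ones at 10 μM numbered 3 without 0 μM replicate 2, 4 without 0 μM replicate 3 and 4 without 10 μM replicate 3. Those counts lie close to the share of all genes lower at 10 μM, 23.6%. Ak1, a cytosolic adenylate kinase, rose by 0.43 ± 0.12 at 10 μM (adjusted p = 0.005). Adssl1, the relative of Adss known from muscle, went from 5.01 ± 0.504 to 3.49 ± 0.203 CPM, a change of -0.53 ± 0.15 (adjusted p = 0.0077, and 0.051 without 0 μM replicate 3), opposite to Adss.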

How the data were processed

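RNA of 9 libraries was sequenced from a TruSeq preparation. The authors deposited expected counts, estimated read counts per gene, of which 24.1% were not whole (any difference from the rounded value, with no tolerance), and they were rounded. GRCm39 is named in the processing notes. HISAT2 and StringTie are named in the methods, and neither names a counting tool, annotation or strand setting. Of 25757 entries, 964 share 70 symbols, and the entry with the most counts carried the symbol. For 17 of the 35 transcripts no library had a whole count, and how reads that fit several entries were divided is not stated.

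The counts were tested with edgeR 4.0.16 in R 4.3.3: filterByExpr (12185 genes), TMM factors, a quasi-likelihood fit of all 9 libraries with concentration as the group, and Benjamini-Hochberg over all genes, with a call at an adjusted p under 0.05. The common coefficient of variation was 3.65%. Alternatives used RLE factors or library totals, a minimum of 10 counts in each library or no filter, DESeq2 1.42.0, fits of the compared groups alone, the replicate number as a block, thinned counts, summed symbols, libraries left out, and a 1.5-fold threshold. The edgeR and DESeq2 procedures were tried on simulated counts, with no result given here. Lengths and promoters came from GENCODE M21 and RefSeq (GRCm38.p6), by symbol.

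Values in every library are given for up to 4 transcripts per step with the smallest adjusted p at 10 μM, for called ones that went against their step, and for 6 pairs of enzymes, and also for Dck, chosen after its values were seen. Of the other lists, up to 4 called genes are named. The 35 enzymes, lists and tests were chosen with earlier results of these data known.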

Additional observations from a re-analysis of the deposited data

How the results depend on the processing

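Directions of all called changes of the 35 transcripts held under all alternatives run. Of the calls, 20 of 27 at 5 μM, 26 of 29 at 10 μM and 2 of 6 between 10 and 5 μM were kept in every alternative but the 1.5-fold threshold. With a change over 1.5-fold required as well, 0 were called in any comparison, in place of 4 higher and 23 lower at 5 μM, 3 and 26 at 10 μM and 6 lower between 10 and 5 μM. With 1 library left out, 4 to 4 were higher and 18 to 24 lower at 5 μM, 3 to 3 and 25 to 27 at 10 μM, and 0 to 1 and 4 to 9 between 10 and 5 μM. Replicate numbers did not pair the samples: correlations of same-numbered libraries were -0.030 to 0.087, and 3 of 9 libraries correlated best with their own number. A replicate block left 4 and 23, 3 and 26, and 0 and 6 calls. In 10 against 5 μM, Tk1 missed the threshold (adjusted p = 0.056) and Dtymk passed it (0.029). With library totals 9 were lower between 10 and 5 μM, Umps among them (adjusted p = 0.040).

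Signs turned for log2 fold changes near 0 that were not called. For 5 against 0 μM, Impdh1 was 0.018 with library totals, 9.9e-04 with at least 10 counts, 2.4e-04 with the replicate block, 0.019 without both libraries that stood apart and -0.020 to 0.020 with 1 library left out. For 10 against 0 μM, Impdh1 was -0.0016 thinned and -0.013 to 0.037 with 1 library left out. Dck was -0.0063 without both libraries that stood apart and -0.016 to 0.13 with 1 library left out. For 10 against 5 μM, Impdh1 was -0.0013 with library totals, -0.013 without both libraries that stood apart and -0.013 to 0.035 with 1 library left out. Impdh2 was -0.017 without both libraries that stood apart and -0.0097 to 0.050 with 1 library left out. Guk1 was -0.087 to 0.0050 with 1 library left out. Dhodh was -0.071 to 0.0083 with 1 library left out. Nme2 was -0.0015 without both libraries that stood apart. Aprt was -0.0058 with library totals, -0.0044 thinned, -0.019 without both libraries that stood apart and -0.021 to 0.051 with 1 library left out. Ada was -0.094 to 0.0087 with 1 library left out. The cause was not tested.

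Of the 43 other nucleotide genes, the count lower was 10 at 5 μM with DESeq2 on all libraries and 12 at 10 μM with DESeq2 on both groups alone, in place of 17 and 21, and 4 and 5 were also over 1.5-fold. With edgeR, 16.8% and 23.6% of all genes were lower, and 3.38% and 7.50% were called over 1.5-fold in either direction. The share of all genes under these DESeq2 settings is not given here. Of the replication fork genes 0 and 0, and of the mitosis genes 0 and 1, were lower by over 1.5-fold at 5 and 10 μM, in place of 17 and 25, and 15 and 18. Depth was 233 counts or more for each of the 35 transcripts in each library.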

Other observations

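Enzymes that break nucleotides down and carriers that move nucleosides were also in the counts. Of 12 listed genes of breakdown, 8 were tested, and 2 were lower at 5 μM and 4 at 10 μM (edgeR, Benjamini-Hochberg over all genes), with 0 higher (0 with DESeq2 and 0 at an unadjusted p under 0.05) and medians of -0.12 and -0.13. Over all genes, 16.8% were lower at 5 μM and 23.6% at 10 μM, and 16.3% and 23.8% were higher. The count at 5 μM lies close to that share. Without 10 μM replicate 1 and 5 μM replicate 2 the counts were 2 and 3. The count at 5 μM was 4 without 10 μM replicate 2 in the shared fit, and that at 10 μM was 2 without 10 μM replicate 3. Nt5e, the ecto-5′-nucleotidase CD73 that makes adenosine outside the cell, stood at 7.69, 6.07 and 7.31 CPM at 0 μM, 4.05, 4.11 and 4.24 CPM at 5 μM and 3.31, 3.72 and 3.29 CPM at 10 μM. Its groups did not overlap, and the log2 fold change was -0.77 ± 0.13 at 5 μM (adjusted p = 1.9e-04) and -1.03 ± 0.14 at 10 μM (adjusted p = 5.2e-06). Xdh, which oxidizes hypoxanthine and xanthine to urate, stood at 13.1, 14.9 and 12.6 CPM at 0 μM, 11.1, 9.07 and 10.3 CPM at 5 μM and 6.92, 9.08 and 8.89 CPM at 10 μM, all lower with acacetin, with changes of -0.41 ± 0.11 at 5 μM (adjusted p = 0.0058) and -0.70 ± 0.11 at 10 μM (adjusted p = 3.9e-05). Both are low in abundance, and unlike any of the 35 enzymes described above both changed by more than 1.5-fold at 10 μM.

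Of 6 listed nucleoside carriers, 5 were tested and 3 were lower at each concentration (2 and 3 without 10 μM replicate 1 and 5 μM replicate 2). The share of all genes that were lower was 16.8% at 5 μM and 23.6% at 10 μM. Slc29a3, an equilibrative carrier of lysosomes and mitochondria, stood at 84.0, 84.1 and 81.9 CPM at 0 μM, 74.2, 73.7 and 74.7 CPM at 5 μM and 62.6, 67.3 and 62.6 CPM at 10 μM. The 3 groups lay apart, with changes of -0.17 ± 0.039 at 5 μM (adjusted p = 0.0025) and -0.38 ± 0.039 at 10 μM (adjusted p = 2.8e-07). Slc29a1, the main equilibrative carrier of the cell surface, had means of 273 ± 6.41, 267 ± 2.097 and 246 ± 8.55 CPM at 0, 5 and 10 μM and changed by -0.032 ± 0.031 at 5 μM (adjusted p = 0.46) and -0.15 ± 0.031 at 10 μM (adjusted p = 4.9e-04).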
